A study of Mus musculus with 10 samples.

Results

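The vomeronasal type 2 receptor genes, whose symbols start with Vmn2r, were examined for histone H3 trimethylated at lysine 4 (H3K4me3), a mark of active gene starts, in sorted neurons from area CA1 of the mouse hippocampus. All 123 autosomal protein-coding Vmn2r genes among the 21887 protein-coding genes of the mouse RefSeq annotation (GRCm38.p6, the coordinates of mm10) were taken by symbol, and 1 more on chromosome X was left out. The symbols alone chose the members, while the gene end at which each was measured was chosen from the data, as the end with the higher mean coverage over all libraries. The mark was located by ChIP-seq, in which chromatin is precipitated with an antibody and its DNA sequenced, in 4 samples of mice carrying a transgene for the C form of calcium/calmodulin-dependent kinase II delta (CamkdeltaC transgenic in the labels) and in 4 littermate controls. All 8 are labelled male, 3 months old and from nuclei sorted for the neuronal protein NeuN. The protocol text describes vehicle and vorinostat given in drinking water, and the labels of these 8 samples name no drug. No source used here gives the promoter that drives the transgene or the cells that carry it. Whether each library is a separate animal is not stated, so p-values measure the spread among these libraries, part or all of which may be technical.

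Vomeronasal type 2 receptors are class C G protein-coupled receptors with a long extracellular ligand-binding domain. They are made in the basal layer of sensory neurons of the vomeronasal organ, signal through the G protein subunit encoded by Gnao1 and the channel Trpc2, and detect peptide and protein cues such as exocrine-gland secreted peptides. Vmn2r1 to Vmn2r7 form the broadly expressed subfamily C, which is found together with other, more sparsely expressed receptors in the same cell, and most of the genes stand in tandem clusters. The hippocampus is not a tissue in which these receptors are known to act.

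The sequences before the annotated start sites show 1 CG-rich member among CG-poor ones, with and without a peak at a gene end alike. RefSeq promoter sequences of 300 bases, reaching from 250 bases before to 50 bases after the start, matched 116 of the 123 members (GRCm38.p6). The 250 bases upstream of the start are printed for 5 members, 5′ to 3′ on the strand of the gene, with every CG dinucleotide in capitals. Vmn2r29 (chr7:7278290-7278539, minus strand) is shown for its CG-rich sequence and its steady peak. Vmn2r53 (chr7:12606545-12606794, minus strand) had the largest mean covered length of all members, and Vmn2r17 (chr5:109419763-109420012, plus strand) the smallest p-value between genotypes, both measured at their 3′ ends and not at the sequence shown. Vmn2r2 (chr3:64137481-64137730, minus strand) stands for subfamily C, which had no peak at a gene end. Vmn2r43 (chr7:8260600-8260849, minus strand) stands for a run of genes without a peak, most of whose promoters share much sequence with other promoters. The sequence of Vmn2r2 lies inside the gene bounds (64115730 to 64170917), outside both windows at its ends. Peaks covered 0% of Vmn2r2 between these bounds in both groups.
Vmn2r29: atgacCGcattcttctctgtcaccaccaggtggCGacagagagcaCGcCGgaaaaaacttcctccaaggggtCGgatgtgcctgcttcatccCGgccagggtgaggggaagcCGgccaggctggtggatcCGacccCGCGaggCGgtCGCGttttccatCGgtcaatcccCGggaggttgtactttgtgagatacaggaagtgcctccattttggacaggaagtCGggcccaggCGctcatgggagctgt
Vmn2r53: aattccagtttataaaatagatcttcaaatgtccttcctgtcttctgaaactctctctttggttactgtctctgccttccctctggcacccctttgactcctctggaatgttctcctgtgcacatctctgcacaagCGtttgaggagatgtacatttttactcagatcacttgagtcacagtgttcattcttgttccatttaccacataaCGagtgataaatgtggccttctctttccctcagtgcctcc
Vmn2r17: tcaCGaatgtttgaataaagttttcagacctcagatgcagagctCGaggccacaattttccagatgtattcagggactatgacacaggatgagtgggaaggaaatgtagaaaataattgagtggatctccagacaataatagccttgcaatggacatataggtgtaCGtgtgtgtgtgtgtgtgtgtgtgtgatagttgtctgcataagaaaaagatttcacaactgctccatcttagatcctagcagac
Vmn2r2: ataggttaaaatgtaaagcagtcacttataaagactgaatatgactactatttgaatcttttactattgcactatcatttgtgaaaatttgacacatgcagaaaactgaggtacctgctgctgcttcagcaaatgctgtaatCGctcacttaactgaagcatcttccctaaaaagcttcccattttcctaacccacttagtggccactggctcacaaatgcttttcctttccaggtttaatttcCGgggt
Vmn2r43: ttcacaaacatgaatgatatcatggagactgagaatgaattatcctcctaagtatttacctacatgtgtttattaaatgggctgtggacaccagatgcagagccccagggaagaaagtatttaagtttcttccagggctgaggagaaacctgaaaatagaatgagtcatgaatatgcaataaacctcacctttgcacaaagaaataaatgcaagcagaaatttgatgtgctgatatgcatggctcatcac

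The upstream sequence of Vmn2r29 holds 17 CG dinucleotides at 60.8% G and C, against 2 in Vmn2r53, 3 in Vmn2r17, 2 in Vmn2r2 and none in Vmn2r43. Over the full 300 bases, Vmn2r29 holds 23 CG dinucleotides and is the single member of 116 with more than 5 (0.862%), while 56.4% of the 32851 promoters in the table hold more than 5. The table lists a second promoter for Vmn2r29 (chr7:7247279-7247578), with 0 CG dinucleotides and 38.3% G and C, and the first listed was used for each gene. The members' median was 1 CG dinucleotide and 38.0% G and C, against 7 and 52.7% over all promoters. Nearly all Vmn2r promoters are thus poor in CG. The 35 members with no peak in any library and the 28 with a peak in all 8 both had a median of 1. Peaks were counted at the better covered gene end, which was the 3′ end for 56 members, and not always at the promoter itself. The letters TATAAA, searched on both strands, were present in 27 members (23.3%) and in 13.6% of all promoters of this length, and in 8 of 8 matched members of the chromosome 6 cluster. A match is a description of the letters and not of a bound factor.

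The peak lists differed in size before any gene was considered. They held between 51903 and 102285 peaks, give no read counts, and so leave the depth unknown. Peaks covered 44.7 ± 1.45 Mb of the autosomes in transgenic and 38.5 ± 2.24 Mb in control libraries (mean ± SD, n = 4 each). The sex chromosomes split the lists against their common male label. Transgenic 1 and 4 and control 2 and 3 held 13023 to 31362 peaks on chromosome X and 4 to 15 on Y (called X-rich here), while the other 4 held 1145 to 1293 on X (X-poor). Of these X-poor lists, transgenic 3 and controls 1 and 4 held 1024 to 1220 peaks on Y and transgenic 2 held 6. Both kinds occur in both groups, 2 lists each, and library totals are given within each kind below. All 8 neuronal marker genes, Rbfox3 (which encodes NeuN) among them, had a peak in every list, and their summed covered length in bp ranged from 20537 to 21957 for the transgenic and from 20165 to 21627 for the control group. Microglial markers had a peak in all 8 lists at 0 of 5 genes, with 4 at 0 throughout, and those of astrocytes, oligodendrocytes and endothelium at 2 of 5 each. Of 5 markers of vomeronasal neurons, Gnao1 and Gnai2, which many neurons use, had a peak in all 8. Omp and Trpc2 were at 0 in all 8. The remaining marker, Tfap2e, had a peak in 6 of the 8 lists, with a mean covered length of 363 bp. The summed length of all 5 in bp was 3841 to 5099 for the transgenic and 3985 to 5428 for the control group.

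Marking of the family was uneven from gene to gene. Covered length is the number of bases under peaks in a window of 4001 bp, 2 kb to each side of the gene end used. A total of 28 members had a peak there in all 8 libraries, 42 had none in any library, and 53 lay between. Counting peaks in at least 4 of 8 libraries, 60 members (48.8%) passed, against 68.8% of all autosomal coding genes, 29.4% of 231 type 1 vomeronasal receptor (Vmn1r) genes and 21.5% of 1104 olfactory receptor (Olfr) genes. These 60 were tested between genotypes and 63 were not. At that threshold, Vmn2r9, Vmn2r58, Vmn2r59, Vmn2r80 and Vmn2r103 had a peak in exactly 4 lists, with mean covered lengths of 132.75 to 318 bp, and Vmn2r49, Vmn2r50 and Vmn2r67 in 3, with 31.5 to 145 bp. Where marked, less of the window was covered than at most genes. The 28 members with a peak in all 8 lists had a median covered length of 763 bp, against 1741 bp for all autosomal coding genes of that kind. It was 965 bp for such Vmn1r and 825.5 bp for such Olfr genes. Covered length adds all peaks within the window and is not the width of 1 peak.

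**Figure D1:**
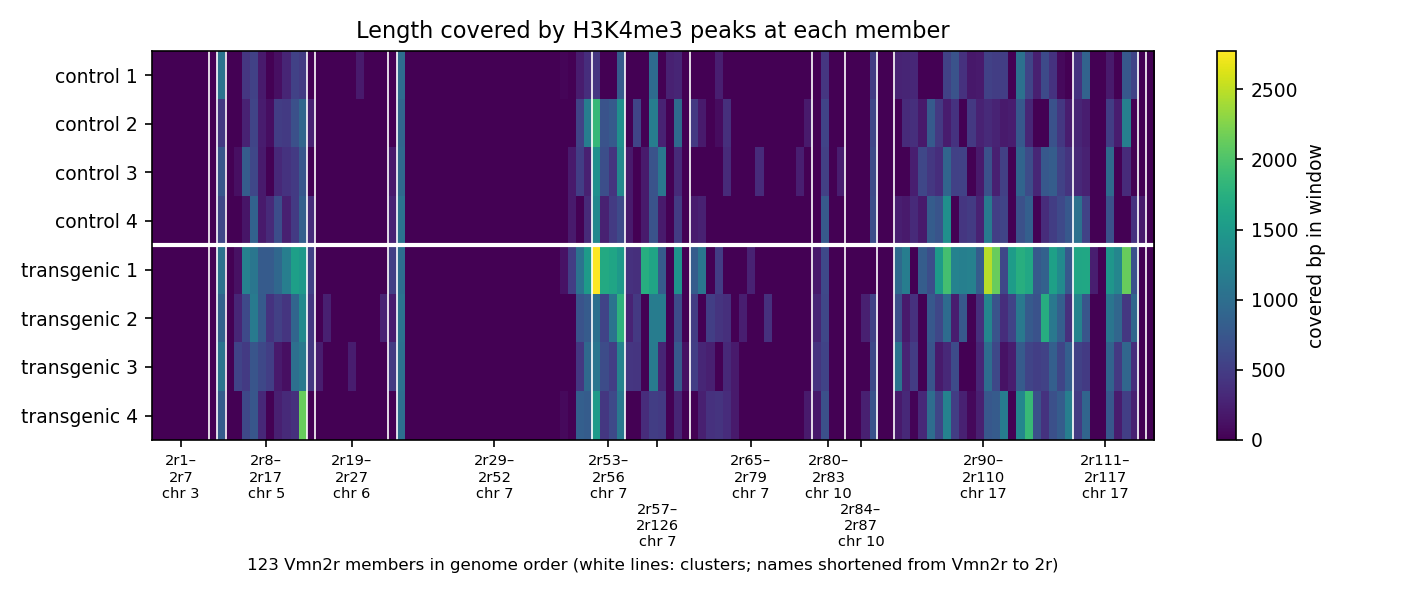
Covered length (bp, colour) in the window of each of the 123 Vmn2r members (columns, in genome order) in each of 8 libraries (rows, controls above the thick line). Marked and empty stretches follow the clusters: the chromosome 17 members between Vmn2r90 and Vmn2r110 are marked in most libraries, and those of chromosome 3 and most of Vmn2r29 to Vmn2r52 are dark in all 8.

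Clusters were formed from members at most 1 Mb apart on a chromosome, which gave 12 clusters of at least 2 genes and 6 single genes. Marking mostly followed these clusters. In the chromosome 17 cluster of Vmn2r90 to Vmn2r110, all 22 members had a peak in at least 4 libraries and 10 in all 8. The chromosome 5 cluster, Vmn2r8 to Vmn2r17, had one in at least 4 libraries at 9 of 10 members, 7 of them in all 8. Vmn2r53 to Vmn2r56 on chromosome 7 had one in at least 4 libraries at 4 of 4, 2 of them in all 8. A peak in at least 1 library was found in Vmn2r57 to Vmn2r126, also on chromosome 7, at 8 of 8, 6 of them in at least 4 libraries. Farther along chromosome 7, the 15 members from Vmn2r65 to Vmn2r79 had peaks in at least 4 libraries at 4 genes, and the 8 from Vmn2r111 to Vmn2r117 on chromosome 17 at 6.

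The subfamily C genes of chromosome 3, Vmn2r1 to Vmn2r7, had no peak within 2 kb of a gene end at any of 7 members in any library. None of the 9 chromosome 6 members, Vmn2r19 to Vmn2r27, reached 4 libraries, and neither Vmn2r88 nor Vmn2r89 on chromosome 14 had a peak at all. Of 24 members between Vmn2r29 and Vmn2r52 on chromosome 7, 3 had a peak in at least 4 libraries, and Vmn2r30 to Vmn2r48 stood at 0 in all 8. Most promoters in that run share much of their sequence with other promoters. For 17 unmarked members of the cluster with a promoter sequence, a median of 89.6% of the 50-base words also occurred in another gene's promoter. Single members ran from 15.5% (Vmn2r36) to 100% (Vmn2r31 among them). The median was 43.4% over all 35 unmarked members with a sequence and 0.797% over the 28 marked in all 8 libraries. By cluster, the medians were 9.16% and 12.5% in the unmarked chromosome 3 and 6 clusters and 49.8% in the marked Vmn2r111 to Vmn2r117 cluster. These words come from promoters alone and do not measure repeated sequence across the windows at gene ends. No source used here says how the authors placed reads from repeated sequence, and its part in the zeros was not tested. Vmn2r122 is listed at bases 3536 to 11935 of chromosome 4, before the first peak of any list on that chromosome (3049898), so its 0 carries no weight.

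**Figure D2:**
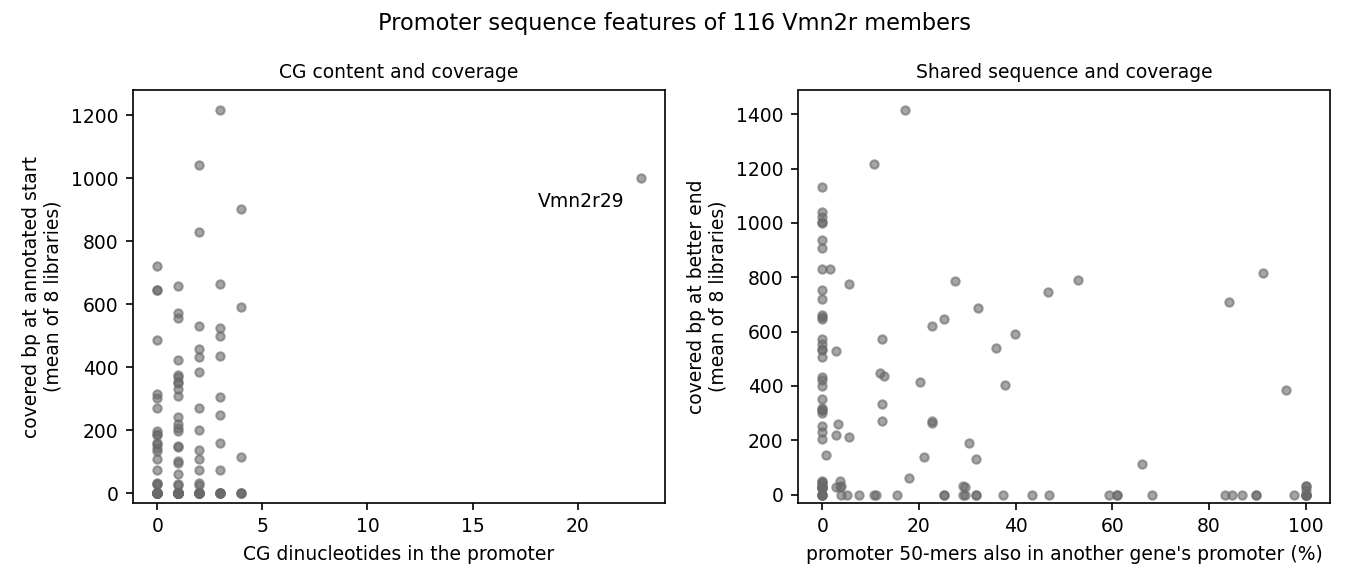
Left: covered length at the annotated start (bp, mean of 8 libraries) against the number of CG dinucleotides in the 300-base promoter of each of 116 members (the first listed for Vmn2r29, which has 2). The start is taken from the gene bounds, and the listed promoter of some members, such as Vmn2r2, lies away from it. Right: covered length at the better covered end against the share of the promoter's 50-base words found in another gene's promoter (%). Vmn2r29 stands alone at 23 CG dinucleotides, and all other members hold 4 or fewer at covered lengths from 0 upwards.

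The mark at Vmn2r genes did not sit where it sits at most coding genes, a trait shared by other chemoreceptor families. Among 10443 other autosomal coding genes of at least 10 kb, the first 500 bp after the start site were covered by peaks to 61.7% in control and 61.0% in transgenic libraries. In the same bases of 106 Vmn2r genes the coverage was 1.73% ± 0.644 in control and 3.18% ± 2.03 in transgenic libraries (SD, n = 4 each), the lowest of the bins within 5 kb of the start in each group. Coverage was higher to either side, at 8.07% ± 0.563 and 14.2% ± 4.55 from 2500 to 2000 bp upstream. Around the 3′ end it was 7.48% ± 1.77 and 12.4% ± 4.51 in the last 500 bp of the gene, and 10.41% ± 1.68 and 17.0% ± 5.25 from 4000 to 3500 bp before it. Other genes were covered to 1.22% and 1.45% in the last 500 bp. With strand known for 116 members, the better covered end was the annotated start for 25 and the 3′ end for 56, as it was for 24 and 49 Vmn1r genes and for 88 and 194 Olfr genes. The summed length at 3′ ends exceeded that at start sites in each of the 8 libraries, for instance 15502 against 13035 bp in control 1 and 61178 against 44906 bp in transgenic 1. The ratio of 3′ to start-site length was 1.16 to 1.49 over the lists for Vmn2r, 1.08 to 1.23 for Vmn1r and 1.16 to 1.27 for Olfr genes. Peaks in these clusters were thus spread along and between the genes. Exons, introns and untranslated regions could not be told apart, since the annotation used gives gene bounds alone.

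**Figure D3:**
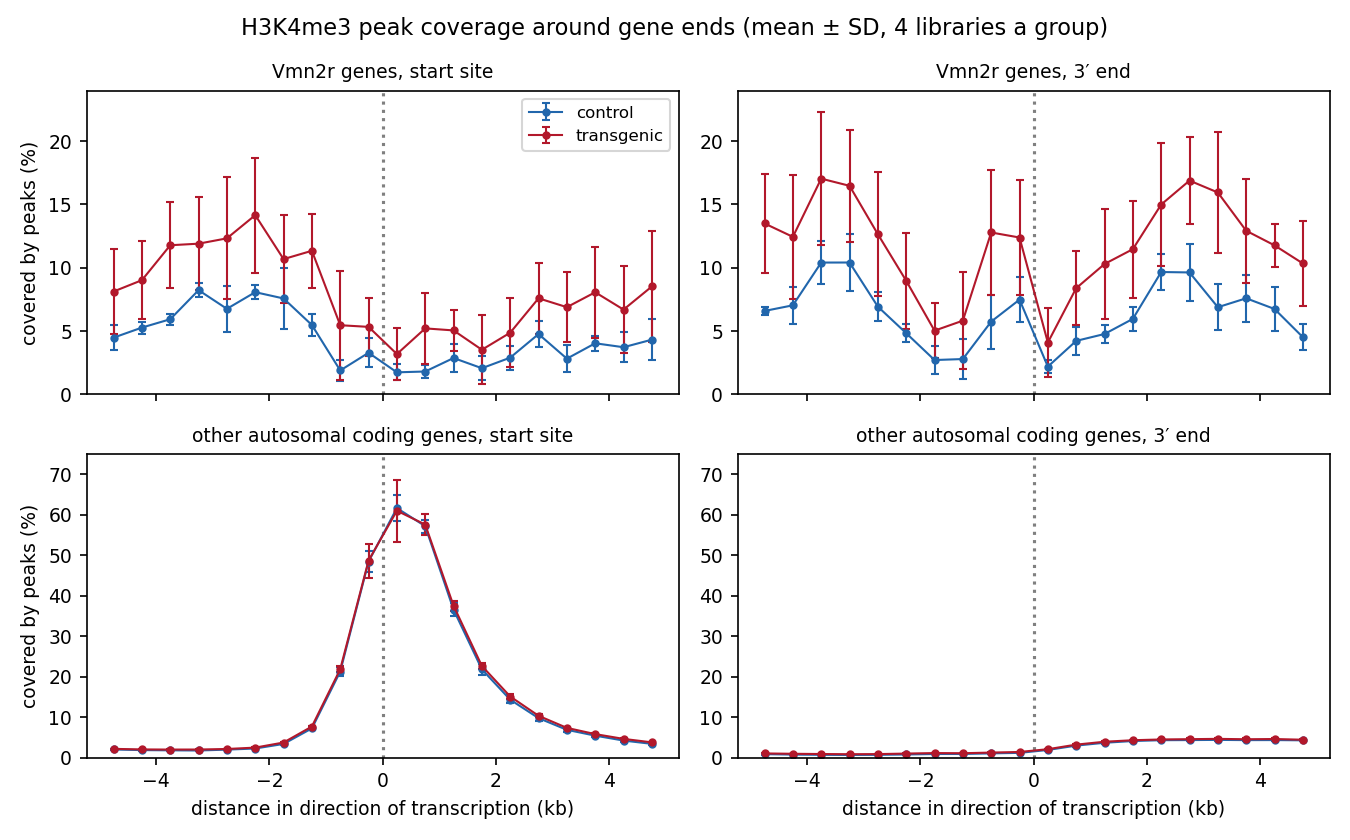
Share of bases covered by peaks (%) in 500-bp bins up to 5 kb before and after the start site (left) and the 3′ end (right), for 106 Vmn2r genes (top) and 10443 other autosomal coding genes (bottom) of at least 10 kb. Points are means of 4 libraries a group and bars the SD. Other genes peak just after the start at about 61%, where the Vmn2r genes are at their lowest, 1.73% in control and 3.18% in transgenic libraries.

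Vmn2r29 (NCBI gene 76229) had a peak at its start site, at base 7278289 of chromosome 7, in every library. Mean covered length at the start was larger at Vmn2r56 (1217 bp) and Vmn2r104 (1041 bp) than at Vmn2r29 (1001 bp). Its covered length was 1004, 1061, 1038 and 1010 bp in transgenic 1 to 4 and 976, 915, 949 and 1054 bp in control 1 to 4. All 8 values lie between 915 and 1061 bp, and the groups overlap. The log2 difference between transgenic and control was 0.05 ± 0.08 (SE, limma adjusted p = 1.00), 1 of 2 members whose 95% confidence interval stayed within 1.5-fold. Its strongest peak had a median fold enrichment of 14.6 over the 8 lists, by the authors' own value for each peak. This is the CG-rich promoter printed above, and the nearest other coding gene, the chloride transporter gene Clcn4, has an end 4020 bp away. For marked members as a whole, the median fold of the strongest peak was 5.02 to 6.20 over the lists, and that of all peaks in a list 5.10 to 6.53. Vmn2r87 on chromosome 10 also carried a strong peak, with a median fold of 11.8, at an end that lies 1212 bp from the pseudogene Gm18755. Vmn2r104, with 7.85, had the pseudogene Gm3547 at 823 bp. For 7 members another listed gene ended within 2 kb of the end used, so that a peak there may belong to either.

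The 12 members with the largest mean covered length, Vmn2r29 included, all had a peak in every library and ranged from 200 to 2775 bp. Vmn2r53, at its 3′ end (chromosome 7, 12581470), had 2775, 1011, 1080 and 1513 bp in transgenic and 444, 1849, 1377 and 1282 bp in control libraries. Transgenic 1 was the highest and control 1 the lowest, and the groups overlapped widely. Its neighbour Vmn2r56, at the start site end (12733320), had 1498, 1793, 1246 and 1113 bp against 794, 1379, 1291 and 621 bp. Vmn2r60 (42195776) had 1621, 1165, 1151 and 506 bp against 974, 1191, 707 and 711 bp. In both, 1 or more control libraries exceeded the lowest transgenic one, and the log2 differences were 0.45 ± 0.26 and 0.20 ± 0.33 (SE). Vmn2r129 on chromosome 4 (156331103), a single gene outside the clusters, had 1046, 869, 1063 and 811 bp against 1055, 458, 743 and 587 bp, with control 1 among the highest.

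On chromosome 17, Vmn2r95 (18452324) had 1942, 966, 321 and 1226 bp in transgenic 1 to 4 and 533, 213, 906 and 1386 bp in control 1 to 4. Both groups spanned a wide range there and overlapped. Vmn2r100 (19532060) had 2481, 1261, 988 and 756 bp against 537, 329, 684 and 1132 bp. Vmn2r104 (20048205) had 1739, 1124, 795 and 1286 bp against 1031, 765, 894 and 692 bp. In each of these genes transgenic 1 was the highest of all 8. Vmn2r105 (20208230) had 1669, 791, 573 and 1873 bp against 570, 302, 642 and 842 bp. Vmn2r108 (20462373) had 1579, 1111, 844 and 676 bp against 405, 694, 821 and 503 bp. Vmn2r114 (23290934), in the next cluster, had 1454, 1074, 881 and 758 bp against 200, 502, 963 and 693 bp. Means were higher in transgenic libraries at all 6 of these chromosome 17 genes, while at each of them at least 1 control library lay above the lowest transgenic one. Their log2 differences ran from 0.44 to 0.89.

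Summed over the family, covered length was higher in every transgenic library than in any control. The number of members with a peak was 61, 63, 60 and 57 in transgenic 1 to 4 and 44, 52, 51 and 51 in control 1 to 4, or 60.25 ± 2.50 against 49.5 ± 3.70 (SD, n = 4 each). The groups do not overlap, and control 1 is the lowest. Summed covered length was 68930, 43140, 34298 and 34696 bp against 19579, 26657, 26654 and 26868 bp, a ratio of means of 1.815. Transgenic 1 stands above the rest, and without it the ratio was 1.499. The groups do not overlap here either, with 34298 bp the lowest transgenic and 26868 bp the highest control value. As a share of the covered autosomal length, the members' windows made up 0.101% ± 0.0324 in transgenic and 0.0646% ± 0.00740 in control libraries, so the ratio of shares was 1.55, and 1.31 without transgenic 1. Summed length over all autosomal coding genes had a ratio of 1.02. That sum rests mostly on start sites, the better covered end at 10580 of these genes, against 1373 for the 3′ end. At the 3′ ends of all autosomal coding genes of known strand, summed length was 2775564 to 2872139 bp in transgenic libraries. In control libraries it was 2329775 to 2725853 bp, so a rise at 3′ ends was not confined to the family. Within the X-rich lists the ratio for the members was 1.94 and within the X-poor lists 1.67, with 2 libraries a group in each. With the end of each gene chosen from the control libraries alone, the difference in members with a peak was 5 rather than 10.75. These sums rest on genes examined with results of these data known and are given as a description, with no test. In sorted nuclei taken in bulk, more nuclei with the mark and more mark per nucleus cannot be told apart.

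**Figure D4:**
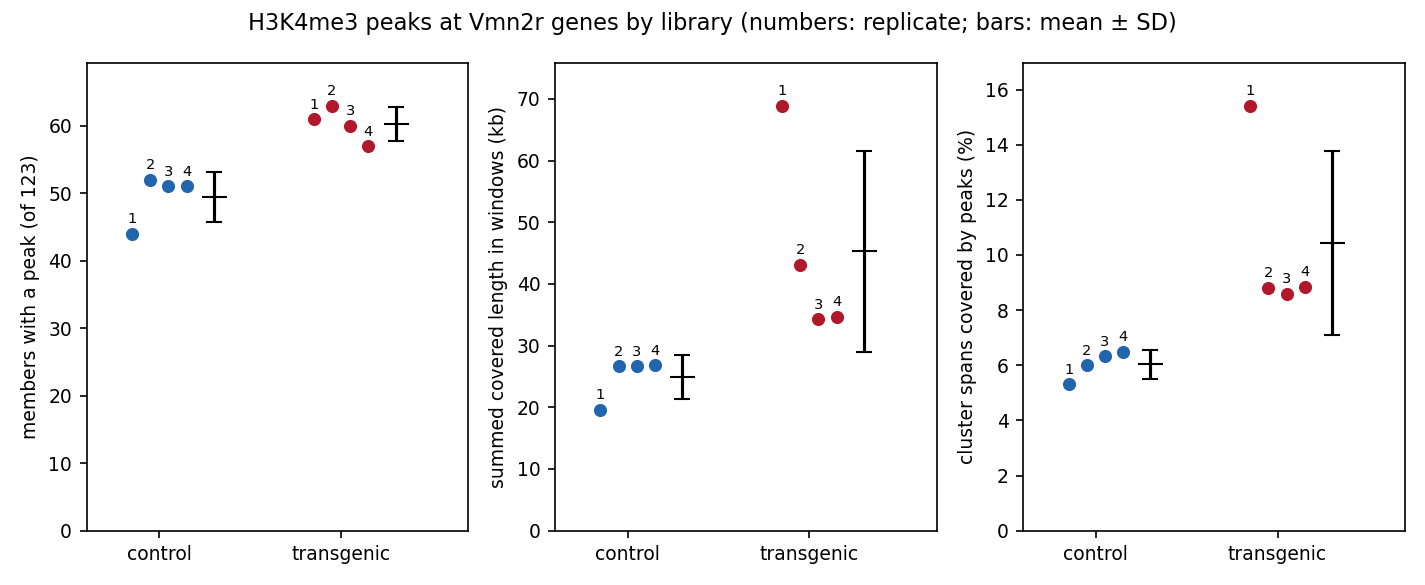
Members with a peak (left, of 123), summed covered length in the members' windows (middle, kb) and share of the clusters' spans covered by peaks (right, %) in each library, numbered by replicate; bars give the mean ± SD of 4. Every transgenic library lies above every control in all 3 panels, and transgenic 1 stands apart in the middle and right panels.

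The difference extended over whole clusters and was not confined to the windows at gene ends. Peaks covered 15.4, 8.81, 8.59 and 8.85% of the 13.5 Mb spanned by all clusters in transgenic 1 to 4 and 5.31, 6.01, 6.33 and 6.49% in control 1 to 4. The ratio of means was 1.73, and 1.45 without transgenic 1, whose value lay far above those of the other 3. The autosomes were covered to 1.86% ± 0.0604 and 1.602% ± 0.0933, so the clusters exceeded the autosomal share 5.57-fold in transgenic and 3.76-fold in control libraries. Peaks of other coding genes inside the spans count towards these shares. Vmn2r90 to Vmn2r110 holds 11 such genes, 6 with a peak in all 8 lists, and Vmn2r57 to Vmn2r126 holds 9, 8 of them so marked. The chromosome 5 cluster and Vmn2r53 to Vmn2r56 hold 0. The Vmn2r90 to Vmn2r110 cluster had the highest coverage, 35.6, 19.3, 18.9 and 20.6% against 12.1, 13.1, 14.6 and 14.8%, with no overlap. Coverage was 16.6% ± 4.72 and 10.18% ± 1.29 (SD, n = 4 each) in the chromosome 5 cluster, 17.2% ± 5.42 and 9.52% ± 1.63 in Vmn2r53 to Vmn2r56, and 4.77% ± 1.63 and 2.18% ± 0.198 in Vmn2r65 to Vmn2r79. In the last of these the members' summed length had the largest ratio among clusters with at least 4 tested members, 2.89, and 2.65 without transgenic 1. Unmarked clusters stayed low in both groups, at 0.0293% and 0.0164% on chromosome 3 and 0.688% and 0.330% on chromosome 6. Vmn2r84 to Vmn2r87 on chromosome 10 had 0.624% ± 0.512 and 0.609% ± 0.181.

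**Figure D5:**
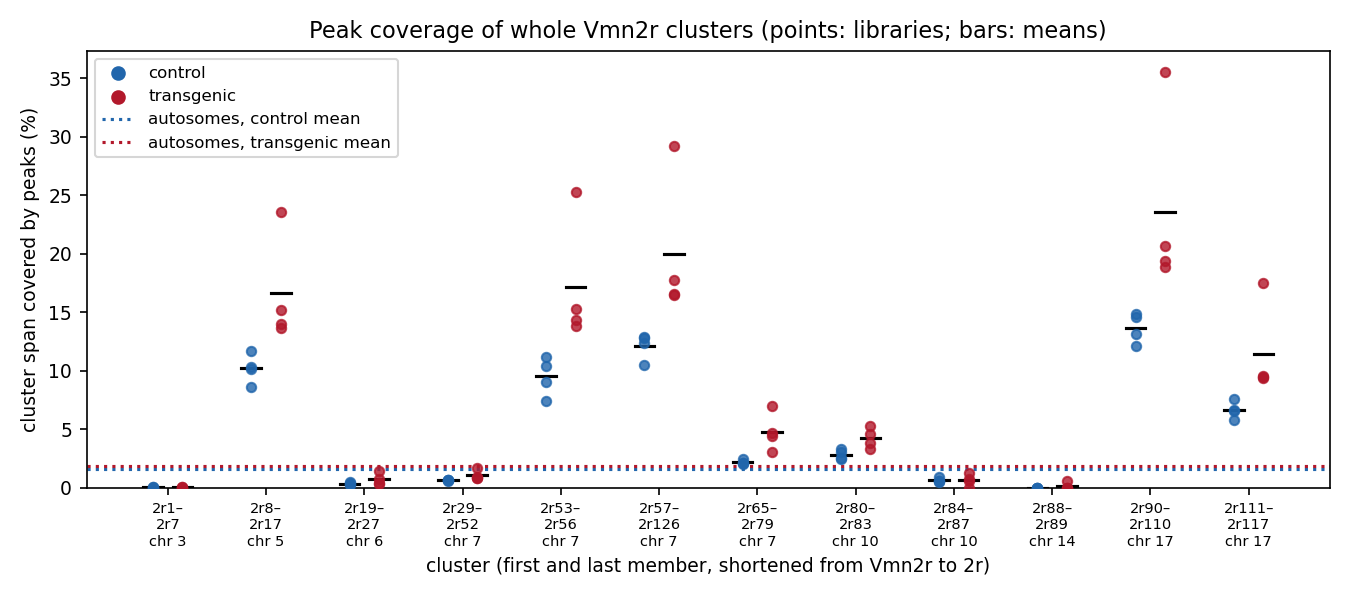
Share of each cluster's span covered by peaks (%) in each library (points) with group means (bars); dotted lines give the mean share of the autosomes. In the cluster from Vmn2r90 to Vmn2r110 the transgenic libraries lie between 18.9 and 35.6% and the controls between 12.1 and 14.8%, while the chromosome 3 cluster lies near 0 in all 8.

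No single member passed the test between genotypes. In the limma fit over 14753 promoters, 0 of the 60 tested members had an adjusted p under 0.05, where 0% of all promoters did in either direction. At an unadjusted p under 0.05, 11 of the 60 were higher in transgenic libraries, where 2.8% of all promoters were, and 0 were lower, where 1.32% were. The log2 difference was above 0 for 56 and below 0 for 4 members, against 46.4% above 0 over all promoters, and its median was 0.85 against -0.01. Without transgenic 1 the median was 0.47, with 46 of 55 tested members above 0. The fit admitted members partly through the group in which they were marked: 15 of the 60 had a peak in all 4 transgenic but fewer than 4 control libraries, and 2 the reverse, so these counts describe the members that passed and support no statement on all 123. Among the 28 members with a peak in all 8 libraries, all 28 were above 0 in a fit limited to promoters of that kind. Their median was 0.58, against -0.01 over all 13538 such promoters, of which 0 passed. The confidence intervals were wide, with a median width of 2.64 on the log2 scale. All log2 differences are on the scale of log2(bp + 100), which understates the change of thinly covered genes.

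At 5 members every transgenic library exceeded every control, and at 0 the reverse held, where 1.86% and 0.481% of all tested promoters did so. They were Vmn2r12, Vmn2r17, Vmn2r80, Vmn2r101 and Vmn2r106, of which Vmn2r12 and Vmn2r101 were named after their values were seen. Vmn2r17 (chromosome 5, 3′ end at 109453387) had the smallest p of all members, with 1501, 1321, 1126 and 2127 bp against 479, 919, 749 and 849 bp, which is 0.91 ± 0.20 in log2 (SE, limma adjusted p = 0.591). Vmn2r12, in the same cluster, had 797, 790, 598 and 322 bp against 200, 214, 200 and 202 bp. Each control list held 1 peak there, at or near the 200 bp of the narrowest peak in any list, so the closeness of these 4 values is no measure of precision. Vmn2r101 on chromosome 17 had 2128, 709, 598 and 793 bp against 501, 275, 247 and 518 bp, with transgenic 1 the highest by far. Vmn2r106 had 761, 704, 515 and 681 bp against 240, 0, 297 and 0 bp (log2 1.97 ± 0.55, limma adjusted p = 0.866), and at the annotated start its log2 difference was 0.20. Vmn2r80 on chromosome 10 (3′ end at 79194933) had 188, 283, 414 and 177 bp against 0 in all 4 controls, the single member with peaks in all libraries of 1 group and none of the other. Of all 20665 autosomal coding genes, 5 had peaks in all transgenic and no control libraries, and 1 the reverse. Vmn2r80 entered the fit through its transgenic peaks alone. Its log2 difference of 1.80 ± 0.62 held at the 3′ end alone: at the annotated start it was -1.39.

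The remaining members with the largest differences overlapped between groups. Vmn2r115 (23343977) had 1269, 913, 463 and 209 bp against 0, 218, 0 and 0 bp, or 2.37 ± 0.64 in log2 (SE, limma adjusted p = 0.841), which was -0.06 in a window of 1 kb to each side. Vmn2r90 had 951, 671, 1062 and 200 bp against 272, 0, 0 and 228 bp. Vmn2r103 had 1535, 556, 227 and 0 bp against 0, 227, 0 and 0 bp (log2 1.67, and 0.21 at the annotated start). In these genes 2 or 3 controls had no peak, and transgenic 4 lay within the range of the controls. Vmn2r117 had 696, 930, 367 and 252 bp against 560, 0, 0 and 410 bp. At the other end of the order, Vmn2r91 had 0, 401, 488 and 25 bp against 313, 378, 236 and 335 bp (log2 -0.76 ± 0.63). Vmn2r87, with the strong peak described above, had 0, 545, 604 and 700 bp against 499, 596, 638 and 657 bp (log2 -0.69 ± 0.57). The negative value of Vmn2r87 came with a single empty library, transgenic 1, without which it was -0.02. Vmn2r98 had 1218, 19, 0 and 59 bp against 180, 456, 0 and 487 bp (log2 -0.49), and Vmn2r92 had 818, 0, 0 and 316 bp against 0, 194, 594 and 200 bp (log2 -0.19). In both, transgenic 1 was the highest of the 8 libraries, and neither sign was stable to the settings tried. Their mean covered lengths were higher in transgenic libraries, 324 against 281 bp for Vmn2r98 and 283.5 against 247 bp for Vmn2r92, opposite to the mean of logs.

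The leading members of the sparsely marked clusters carried little. Vmn2r81 on chromosome 10 was steady, with 613, 588, 554 and 678 bp against 443, 558, 521 and 777 bp (log2 0.07 ± 0.19). Vmn2r65 had 809, 504, 515 and 0 bp against 0, 460, 0 and 214 bp. Vmn2r18 had 540, 447, 448 and 0 bp against 0, 250, 0 and 340 bp, and the single gene Vmn2r28 had 524, 218, 478 and 0 bp against 0, 7, 200 and 275 bp. In all 3 of these genes transgenic 4 and control 1 were at 0. Vmn2r27, the best covered chromosome 6 member, had 265 bp in transgenic 2 and 0 elsewhere, and Vmn2r118 had 200 bp in control 4 and 0 elsewhere.

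Between the genes, a few stretches did pass the test. The peaks of all 8 lists were joined into regions, which were tested where at least 2 libraries had a peak. Of 3238 regions in the clusters, 6 had an adjusted p under 0.05 in the limma fit over 72683 regions and were higher in transgenic libraries (0.185%, where 0.0454% of all regions were), and 0 were lower (0.00275% of all). A log2 difference above 0 was seen in 2408 (74.4%), with a median of 0.47, against 51.6% and 0.02 in the 69445 regions outside the clusters. Many regions entered through 1 group alone, so these shares describe the regions tested and support nothing further. Limited to regions with a peak in all 8 lists, 512 of 614 in the clusters were above 0 with a median of 0.34, where the median of all such regions was -0.06, and 0 passed. A peak in all 4 transgenic and no control library was found in 33 regions, where 0.396% of all regions had one, and the reverse in 1, where 0.0179% did. The 6 calls were sensitive: without transgenic 1, transgenic 2, transgenic 4 or control 1, in turn, 3, 3, 2 and 3 regions passed, 1 passed with autosomes alone in the fit, and 0 when each list was limited to its top-ranked peaks in equal number.

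The region with the smallest p lay in the Vmn2r57 to Vmn2r126 cluster (chr7:42972220-42975489), 38431 bp from Vmn2r63 and 17809 bp from the pseudogene Gm9294. It held 2499, 2253, 2221 and 2200 bp of peaks in transgenic and 1187, 1462, 1111 and 1085 bp in control libraries, which is 0.77 ± 0.11 in log2 (SE, limma adjusted p = 0.00492). All 4 transgenic values lie between 2200 and 2499 bp, above the highest control. A second region of this cluster (chr7:42836618-42838649), over the transcribed pseudogene Gm2381, held 1730, 1056, 830 and 1523 bp against 200, 455, 341 and 471 bp (log2 1.46 ± 0.27, limma adjusted p = 0.0395). On chromosome 5, the region at chr5:109230151-109232277, 5529 bp from Vmn2r14, held 1705, 1089, 1164 and 1402 bp against 515, 264, 404 and 493 bp (log2 1.38 ± 0.24, limma adjusted p = 0.0210). Neither of these overlapped between groups, and each lowest transgenic value was above 1.5 times the highest control.

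On chromosome 17, a region 6709 bp from Vmn2r114 and 3358 bp from the pseudogene Vmn2r-ps133 (chr17:23280536-23284225) held 2955, 1479, 2215 and 1925 bp against 736, 917, 750 and 1018 bp (log2 1.10 ± 0.17, limma adjusted p = 0.00926). The region at chr17:19625607-19628945, 13290 bp from Vmn2r101, held 2826, 2395, 2663 and 2794 bp against 1357, 1831, 1482 and 2020 bp (log2 0.55 ± 0.10, limma adjusted p = 0.0276). The region at chr17:18400153-18402293, 21811 bp from Vmn2r95, held 1784, 1385, 1328 and 1402 bp against 278, 200, 829 and 200 bp (log2 1.79 ± 0.31, limma adjusted p = 0.0300). In all 3 every transgenic library exceeded every control, and none of the 6 called regions overlapped a Vmn2r gene.

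Genes that act with the receptors in vomeronasal neurons gave a mixed picture. Of 25 genes of vomeronasal signalling, 12 had a peak in all 8 libraries and 9 in none, and of the 16 tested 0 passed the adjusted test. Gnao1, the receptors' G protein subunit, had 2017 ± 202 and 2026 ± 133 bp (mean ± SD, n = 4 each; log2 -0.03), and Gnai2, used by the type 1 receptors, 2206 ± 102 and 2159 ± 183 bp (log2 0.01). Trpc2, the transduction channel, had no peak. In this list 3 genes had an unadjusted p under 0.05, all higher in transgenic libraries, where 2.8% of all promoters were. They were H2-M1, H2-M9 and H2-M11 on chromosome 17, of the non-classical class I histocompatibility genes made in the same sensory neurons as the receptors. H2-M9 had 1015 ± 388 and 207 ± 139 bp (log2 1.94 ± 0.51, limma adjusted p = 0.838), and H2-M1 and H2-M11 had log2 differences of 1.95 and 1.65. H2-M1 had a peak in 5 of the 8 libraries. Of the other H2-M genes listed, H2-M10.4 had a log2 difference of 1.31 ± 0.92 (SE). H2-M10.1, H2-M10.2, H2-M10.3, H2-M10.5 and H2-M10.6 had no peak in any library.

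Genes for ligands of these receptors and for their relatives were set beside the family. Of 15 genes for exocrine-gland secreted peptides (Esp), 12 were tested, 0 passed, and 11 were above 0, with a median log2 difference of 0.94. Esp1, whose product is a male tear pheromone detected by a type 2 receptor, had 1094 ± 595 and 391 ± 304 bp (log2 1.38 ± 0.71). Of 22 major urinary protein (Mup) genes, 13 had no peak and 3 were tested. Among 22 class C receptors other than Vmn2r, 17 had a peak in all 8 libraries and 0 passed. Their median was -0.01, with 2742 ± 198 and 2734 ± 62.5 bp at Gabbr1, a GABA-B receptor subunit gene. Other clustered chemoreceptor families were also higher in transgenic libraries. Summed covered length had a ratio of 1.77 at Vmn1r and 2.03 at Olfr genes, 1.43 and 1.87 without transgenic 1, and the median log2 difference of tested genes was 0.66 and 0.84. Whether the families differ from each other in this was not tested.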

How the data were processed

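H3K4me3 was measured in 8 libraries, 4 per genotype, grouped by their titles; 2 input samples were not analysed here. The letter codes of the list names (C for transgenic, A for control) are the reverse of those in the descriptions; the genotype in each list's name and its title agree, and these set the group. The authors' deposited files are peak lists in the MACS2 layout, 1 for each library, without a header. A deposited row gives a position, a score, a fold enrichment (a ratio) and both p-value and q-value as −log10. MACS2, limma, DiffBind, Bowtie2 2.0.2, deepTools 3.0.1, FastQC 0.11.5, SAMtools 1.3.1 and build mm10 were used per the submitters' processing notes. Settings, handling of repeated sequence and each list's background library were not given in the sources used here. The lists hold no read counts, so depth is unknown and deeper libraries may give more and wider peaks.

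Peaks were merged within each list. Gene ends came from RefSeq (GRCm38.p6), strand from its promoter table. Covered bp in 2 kb to each side of the better covered gene end were compared as log2(bp + 100), after subtracting the library median of promoters marked in all 8, with limma 3.58.1 in R 4.3.3 (trended, robust) and Benjamini-Hochberg adjustment over all promoters with a peak in at least 4 libraries, or all regions with a peak in at least 2 (overlap of 1 bp), at 0.05. The script was tested on simulated data. Summaries used Python 3.11.15. Other thresholds, windows, gene ends, scalings, pseudocounts, filters, variance models, a replicate block and leaving out libraries were tried.

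Named members are the 12 with the largest mean covered length, the 6 highest and 4 lowest log2 differences, those with peaks in all libraries of 1 group alone, the best covered of each cluster, and for regions the 5 smallest p-values; the sixth called region was added after its value was seen. Members, lists and tests were chosen with earlier results of these data known.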

Additional observations from a re-analysis of the deposited data

Results flagged for a closer look

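In 62 sets of 4 libraries checked, 8 had 1 library set apart from the other 3 by more than Dixon's criterion allows. The criterion is set for about 1 of 20 sets of independent, normally distributed values. These sets share libraries and members, and several hold zeros, so 8 of 62 cannot be set against that rate. Transgenic 1 was high for the share of the clusters covered (15.4%) and for Vmn2r98 (1218 bp). Control 1 was low for the number of members with a peak (44) and for summed covered length (19579 bp). Transgenic 2 was high for Vmn2r27 (265 bp). Control 2 was high for Vmn2r103 (227 bp) and Vmn2r115 (218 bp), and control 4 for Vmn2r118 (200 bp). In the last 3 genes, and in Vmn2r27, the other 3 libraries of the group were at 0.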

How the results depend on the processing

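Summed covered length stayed higher in transgenic libraries, within the spread of the replicates, under all 15 alternatives tried (difference of 20326.5 bp; 12438.5 to 23982.5 bp leaving out 1 library). The difference of 10.75 in members with a peak was 14 with peaks of −log10 q of at least 3, 5 with the end chosen in controls, and 7.5 and 14 within the X-rich and X-poor lists, a split chosen after seeing the data (8.92 to 11.8 leaving out 1 library). The median log2 difference of 0.85 was 0.43 with a pseudocount of 500 bp and 0.47 to 0.96 leaving out 1 library, 0.47 without transgenic 1. With ordinary variance 1 member (Vmn2r80, adjusted p = 0.0462) and 5 promoters in all passed, against 0 and 0. The 6 regions called in the clusters became 13 without centring (which moved the median of all regions from 0.03 to 0.13), 97 with a peak in at least 1 library, 0 with a peak in all 8, 0 with equal numbers of top-ranked peaks, 1 with autosomes alone, 33 with ordinary variance, 0 within X-rich and 0 within X-poor lists, and 2 to 6 leaving out 1 library. Numbers did not pair the samples: same-numbered libraries had correlations of -0.06, -0.13, -0.16 and 0.17, while the highest among all pairs was 0.30. With the replicate number as a block, 0 regions, 0 members and 0 promoters passed. Single members changed sign as follows. Vmn2r115 was -0.059 in a 1 kb window; Vmn2r80 was -1.39 at the annotated start and -1.38 with the end chosen in controls; Vmn2r91 was 0.33 in X-poor lists. Vmn2r92 was 0.11 at −log10 q of at least 3, 0.44 in X-rich lists and -0.86 to 0.26 leaving out 1 library (0.25, 0.26 and 0.25 without transgenic 2, transgenic 3 and control 3). Vmn2r98 was 1.53 with equal numbers of peaks, 1.52 at the annotated start and 0.94 in X-rich lists. The cause of these changes was not tested. Lists without counts limit all of this to the presence and width of peaks.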

Other observations

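The 128 autosomal Vmn2r pseudogenes, not all of which lie inside the spans of the clusters, were marked nearly as often as the genes. A peak was present in at least 4 libraries at 55 of them (43.0%) and in all 8 at 31. Summed over them, peaks covered 59452 ± 12312 bp (SD) in the 4 transgenic and 38524 ± 1754 bp in the 4 control lists, a ratio of 1.54. The single chromosome 17 gene Vmn2r118 had little at its ends, while peaks covered 2.44% ± 1.21 of its body in transgenic and 0.485% ± 0.326 in control libraries. These values belong to no test.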
